A study of Mus musculus with 6 samples.

Results

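This report describes 10 genes of lipolysis, the release of fatty acids from stored triglyceride, in mouse cells at day 2 of beige adipocyte differentiation. They are *Pnpla2*, *Pnpla3*, *Lipe*, *Mgll*, *Abhd5*, *Abhd6*, *G0s2*, *Lipa*, *Ces1d* and *Ces1f*, chosen by gene name because of what their proteins do, and all 10 were found among the 56884 gene IDs of each library. The cells were a line of the stromal vascular fraction (SVF, the non-adipocyte cells of fat, adipocyte precursors among them) of mouse subcutaneous white adipose tissue (scWAT). The line was immortalized and carried HA-tagged PPARγ2 from a retroviral vector under puromycin selection, so each mutant was present in addition to the cells' own *Pparg*. One group expressed PPARγ2 K382Q, in which glutamine stands for the lysine and mimics its acetylated form, and the other expressed PPARγ2 K382R, in which arginine mimics the deacetylated form. RNA was sequenced from 3 biological replicates of each mutant, 6 libraries in all, and the comparison asked how the state of this lysine bears on early beige differentiation. Both groups had received the same induction medium with isobutylmethylxanthine, indomethacin, dexamethasone, insulin, T3 and rosiglitazone, which is itself a PPARγ ligand. Isobutylmethylxanthine blocks phosphodiesterases and so can stimulate cAMP signalling, and it was in the medium of both groups. The state of cAMP signalling in these cells was not tested. Cells without either mutant, cells before induction and other days were not analysed here, so each difference below is between the mutants.

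In adipocytes the triglyceride of the lipid droplet is cleaved in steps. ATGL (encoded by *Pnpla2*) removes the first fatty acid, hormone-sensitive lipase (*Lipe*) acts on the diacylglycerol that is left, and monoacylglycerol lipase (*Mgll*) releases the last fatty acid and glycerol. CGI-58 (*Abhd5*) activates ATGL and G0S2 inhibits it. Lysosomal acid lipase (*Lipa*) provides a separate route inside lysosomes, and the carboxylesterases are hydrolases of the endoplasmic reticulum and the droplet with activity towards triglyceride.

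The values are TPM, a share of all transcripts corrected for gene length, and a log2 fold change is a difference between group means of log2(TPM + 0.5). A positive value means higher expression in PPARγ2 K382Q-overexpressing cells, and the added 0.5 understates the change of low genes. Adjusted p-values are from limma over all 15426 tested genes with Benjamini-Hochberg adjustment. The total aligned length was 5.96, 7.50 and 5.95 Gb in the K382Q libraries and 7.79, 8.15 and 6.53 Gb in the K382R libraries. Read counts were not analysed here, so depth is given as reads per base and the precision is that of 3 replicates. Over all tested genes the median log2 fold change was -0.14, and it was 0.0037 after median-ratio scaling, which sets the typical gene equal between libraries. A log2 change near -0.14 is therefore that of the typical gene on the TPM scale, and each change is also given relative to this median where the reading depends on it.

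Expression of the 10 genes was mostly higher in PPARγ2 K382Q-overexpressing cells, while *Pnpla2* and *Lipe*, the first enzymes of the main route, did not pass the test. At an adjusted p under 0.05, 7 of the 10 were higher (*Pnpla3*, *Mgll*, *Abhd6*, *G0s2*, *Lipa*, *Ces1d* and *Ces1f*), against a background of 11.1% of all tested genes. *Abhd5* alone was lower, against 36.9% of all tested genes, and it did not pass after median-ratio scaling (adjusted p = 0.509). After median-ratio scaling 8 of the 10 were higher, against 19.9% of all tested genes, and 0 were lower, against 20.4%. In either direction 48.1% of all tested genes passed, so a call by itself does not set a gene apart here. All 10 genes passed the filter on low values, and their median log2 fold change was 0.38. *Ces1f* alone was also changed over 2-fold, as were 3.88% of all tested genes, of which 1.27% were higher and 2.61% lower. The TPM of the groups did not overlap for 9 of the 10 genes, against 57% of all tested genes. Of the 9, 7 were higher in K382Q (14.1% of all tested genes) and 2 lower (42.8%). The summed TPM of the 10 genes was 3214 ± 47.0 in the K382Q group, above the 2744 ± 39.3 of the K382R group (SD, n = 3 each).

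**Figure D1:**
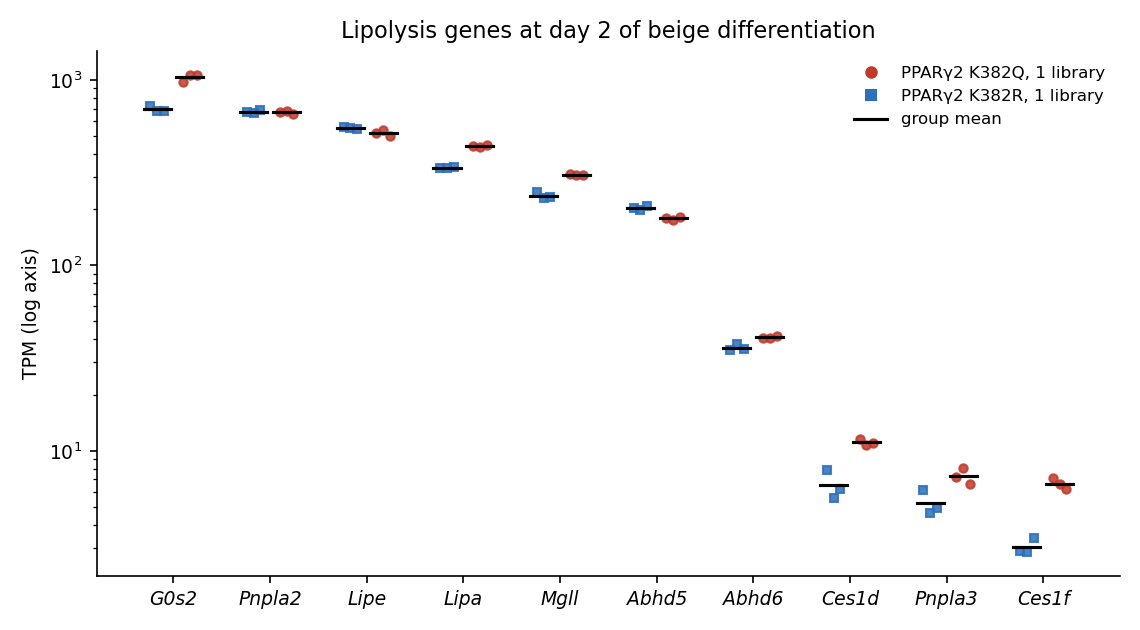
TPM of the 10 lipolysis genes on a log axis, with 1 point for each library, red circles for PPARγ2 K382Q, blue squares for PPARγ2 K382R and a line at each group mean. *G0s2*, *Lipa*, *Mgll*, *Abhd6*, *Ces1d*, *Pnpla3* and *Ces1f* have all 3 K382Q libraries above all 3 K382R libraries, *Lipe* and *Abhd5* have them below on this scale, and *Pnpla2* overlaps.

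The triglyceride lipase itself did not differ between the groups beyond the spread of the libraries on the TPM scale. *Pnpla2* (chr7:141035111-141040656 in GRCm39, plus strand), which encodes the rate-limiting lipase of the pathway, had TPM values of 674, 678 and 653 in the K382Q libraries and 668, 665 and 689 in the K382R libraries. The groups overlapped, and the log2 fold change was -0.013 (SE 0.029, 95% interval -0.081 to 0.055, adjusted p = 0.746). This interval leaves room for a difference of a few percent only on the TPM scale. The sign depended on the scaling, however. After median-ratio scaling the log2 fold change was 0.14 with an adjusted p of 0.00687, while quantile normalization gave -0.074 with an adjusted p of 0.163. Relative to the median of all genes *Pnpla2* was 0.12 higher on the log2 scale.

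*Lipe* (chr7:25078952-25098135, minus strand), which encodes hormone-sensitive lipase, had TPM values of 517, 534 and 499.9 in the K382Q libraries and 555, 547 and 544 in the K382R libraries. Every K382Q library was below every K382R library, by little. The log2 fold change was -0.087 (SE 0.031), with an adjusted p of 0.0521 that was 0.0223 without K382Q replicate 2. Relative to the median of all genes the difference was 0.049, and after median-ratio scaling the log2 fold change was 0.066 with an adjusted p of 0.156. In coverage per base, the mean read depth of the gene, the groups overlapped.

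The expression of *Mgll* (chr6:88701394-88805342, plus strand), whose product completes the route, was higher in PPARγ2 K382Q-overexpressing cells. TPM was 310.1, 307 and 309 in the K382Q libraries and 247, 229 and 235 in the K382R libraries. The groups were well apart, the log2 fold change was 0.38 (SE 0.033, adjusted p = 6.93e-05), and the means differed by 30.1%. *Abhd6* (chr14:14413010-14466871, minus strand) encodes another monoacylglycerol hydrolase, which acts at membranes, and it had TPM values of 40.5, 40.6 and 41.5 against 34.8, 37.5 and 35.3. It was higher by a smaller amount than *Mgll*, with a log2 fold change of 0.19 (SE 0.042, adjusted p = 0.00773). Relative to the median of all genes the change of *Abhd6* was 0.32. Its log2 fold change was 0.34 after median-ratio scaling and 0.36 after quantile normalization. The ratio of *Abhd6* to *Mgll* within a library was 0.131 to 0.134 in the K382Q group and 0.141 to 0.163 in the K382R group.

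The inhibitor and the activator of ATGL moved in opposite directions on the TPM scale. *G0s2* (chr1:192954469-192955525, minus strand), whose product binds ATGL and blocks it, had the highest mean TPM of the 10 genes in both groups, although *Pnpla2* was above it in K382R replicate 3, and its TPM was 979, 1067 and 1062 in the K382Q libraries and 720.2, 679 and 683 in the K382R libraries. The lowest K382Q library lay far above the highest K382R library, and the mean was 1.49-fold higher. The log2 fold change was 0.58 (SE 0.043, adjusted p = 2.87e-05), and 14% of all tested genes had a larger change. *G0s2* alone made up 32.2 ± 1.1% (SD, n = 3) of the summed TPM of the 10 genes in the K382Q group and 25.3 ± 0.548% (SD, n = 3) in the K382R group. The share of *Pnpla2* was 20.8 ± 0.507% and 24.6 ± 0.539% (SD, n = 3 each). These shares depend on the unit, and in summed coverage that of *G0s2* was 48.99 ± 1.29% against 40.5 ± 0.587% (SD, n = 3 each).

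*Abhd5* (chr9:122180673-122210589, plus strand), which encodes the activator CGI-58, had TPM values of 179, 176 and 183 in the K382Q libraries and 204, 198 and 209 in the K382R libraries. The groups did not overlap, and the log2 fold change was -0.18 (SE 0.033, adjusted p = 0.00259). Relative to the median of all genes the change was -0.047. After median-ratio scaling the log2 fold change was -0.030 with an adjusted p of 0.509, while after quantile normalization, which also brings the typical gene near 0, it was -0.094 and passed with an adjusted p of 0.0442.

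Ratios within a library are the same under any scaling that multiplies a whole library by 1 factor, which quantile normalization does not. Under quantile normalization the log2 fold changes were -0.074 for *Pnpla2*, -0.039 for *Lipe* and -0.094 for *Abhd5*, so *Lipe* did not stay below *Pnpla2* in its change, and *Abhd5* did by less. The ratio of *G0s2* to *Pnpla2* in TPM was 1.45, 1.57 and 1.63 in the K382Q libraries and 1.08, 1.02 and 0.990 in the K382R libraries. In TPM, inhibitor and lipase transcripts were near parity in the K382R group, and the inhibitor was above the lipase in every K382Q library. The ratio of *Abhd5* to *Pnpla2* was 0.266, 0.259 and 0.281 against 0.306, 0.297 and 0.304, again without overlap. That of *Lipe* to *Pnpla2* was 0.766 to 0.787 against 0.789 to 0.830, where the closest libraries nearly touched. That of *Mgll* to *Lipe* was 0.574 to 0.618 against 0.419 to 0.446. These ratios were not tested. In coverage per base their levels differed (the ratio of *G0s2* to *Pnpla2* was 2.49 to 2.80 against 1.63 to 1.74, and that of *Mgll* to *Lipe* 1.56 to 1.60 against 1.10 to 1.15), and each ratio kept its direction between the groups. The ratio of *Abhd5* to *Pnpla2* in coverage was 0.218 to 0.2414 against 0.2416 to 0.255, so the groups all but touched.

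**Figure D2:**
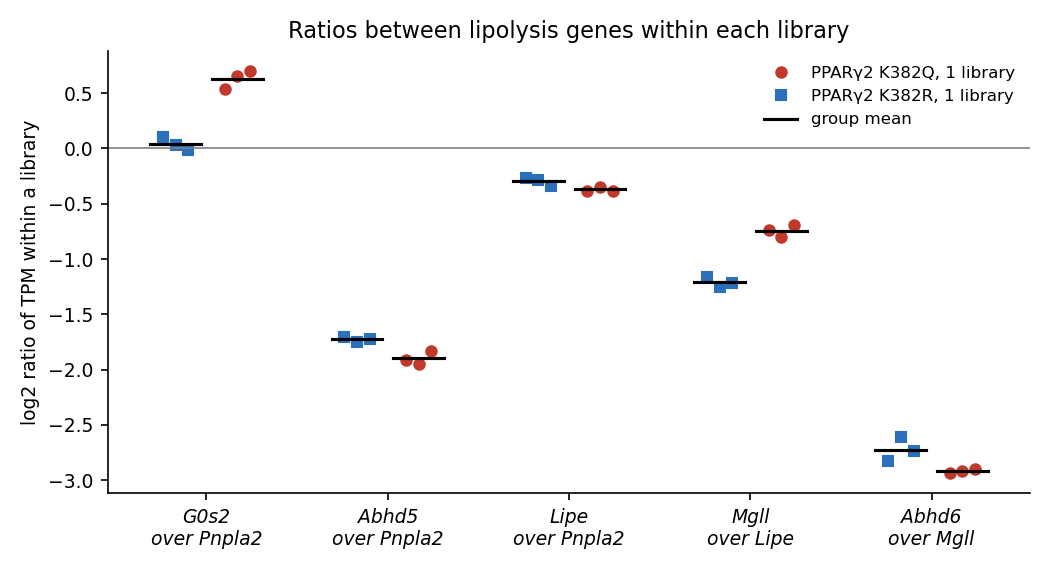
Log2 ratio of the TPM of gene pairs within each library, with 1 point for each library and a line at each group mean, where 0 means equal TPM. The K382Q libraries lie at 0.54 to 0.70 for *G0s2* over *Pnpla2* and the K382R libraries at -0.015 to 0.11, and the groups do not overlap for any of the 5 ratios.

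The sequence just before each gene is shown for the ATGL regulators, which moved apart on the TPM scale. It is shown because the compared factor is a DNA-binding receptor. Windows of 250 bases before the gene's start in the deposited tables were read from the GRCm39 genome on the gene's strand, and only the stretch free of annotated exons is printed. The motifs searched on both strands were the nuclear receptor element AGGTCA, its direct repeat AGGTCANAGGTCA (the form bound by PPARγ with RXR, which contains the former), the cAMP response element TGACGTCA, the C/EBP palindrome TTGCGCAA and the CCAAT box. Capitals mark a match, and positions count back from the gene's start, whose preceding base is -1. The *G0s2* stretch is chr1:192955526-192955645 on the minus strand, and the *Abhd5* stretch is chr9:122180515-122180620 on the plus strand.
G0s2: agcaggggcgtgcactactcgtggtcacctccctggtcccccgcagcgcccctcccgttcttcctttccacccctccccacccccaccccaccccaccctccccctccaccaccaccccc
Abhd5: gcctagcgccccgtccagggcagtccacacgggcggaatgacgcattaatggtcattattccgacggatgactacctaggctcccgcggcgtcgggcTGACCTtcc
The *Abhd5* stretch holds AGGTCA on the reverse strand, starting at -61, and 11.3% of the 15424 windows of tested genes held this element. The *G0s2* window of 250 bases held none of the 5 motifs. A match, or the lack of one, is a description of the letters in this window only. Sequence further from the gene was not searched.

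*Lamb3*, which encodes a laminin chain, overlaps *G0s2* on the opposite strand, with 0 exonic bases shared. It was looked up after the values of *G0s2* were known. The TPM of *Lamb3* was 11.02 ± 1.29 in the K382Q group and 5.82 ± 0.240 in the K382R group (SD, n = 3 each), with a log2 fold change of 0.86 (limma, adjusted p = 0.000207).

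Lysosomal acid lipase was higher in PPARγ2 K382Q-overexpressing cells. *Lipa* (chr19:34469718-34504874, minus strand) had TPM values of 439.7, 432 and 446 in the K382Q libraries and 336, 335 and 338 in the K382R libraries. Each group was tight and the log2 fold change was 0.38 (SE 0.026, adjusted p = 1.75e-05), with means that differed by 30.6%. Of 24 other tested lysosomal hydrolases and regulators of the lysosome, 17 were lower, 2 were higher and 5 did not pass. None changed over 2-fold, and the median log2 fold change was -0.25. Of all tested genes 36.9% were lower and 11.1% higher, which is also the background of the lists further below. After median-ratio scaling 10 of the lysosomal genes were lower and 5 higher, against 20.4% and 19.9% of all tested genes. *Ctsb*, a cathepsin protease, had the largest decrease of the list, at -0.66 (adjusted p = 1.58e-06), and *Ctsa*, the protective protein of lysosomal glycosidases, the largest increase, at 0.44 (adjusted p = 6.32e-05). These 2 were picked after their values were seen.

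The carboxylesterase genes showed the largest relative changes of the 10, from low levels. *Ces1f* (chr8:93982864-94006375, minus strand) had TPM values of 7.09, 6.59 and 6.20 in the K382Q libraries and 2.87, 2.85 and 3.39 in the K382R libraries. The mean was 2.18-fold higher, and the log2 fold change was 1.01 (SE 0.103, adjusted p = 0.000145). This lay close to the 2-fold line, and the log2 fold change was 0.97 without K382Q replicate 1, 0.98 without K382R replicate 1 and 0.98 without K382R replicate 2, each past the adjusted p and below 2-fold. In coverage per aligned Gb the means were 1.58 and 0.676, a 2.34-fold difference, and the log2 fold change was 0.82 because the added 0.5 weighs more on values this small. The reads behind it were few, with 4.89 to 11.8 reads per base over the 6 libraries.

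*Ces1d* (chr8:93892696-93924466, minus strand), a carboxylesterase known to hydrolyse triglyceride in adipocytes and liver, had TPM values of 11.5, 10.8 and 10.99 in the K382Q libraries and 7.83, 5.57 and 6.19 in the K382R libraries. K382R replicate 1 was the highest of its group and still below every K382Q library. The log2 fold change was 0.74 (SE 0.117, adjusted p = 0.00139), and the mean was 1.70-fold higher. Both genes lie on the minus strand in a cluster of carboxylesterase genes. Of the other members of this cluster, *Ces1b*, *Ces1c* and *Ces1h* were listed at 0 in all libraries, and *Ces1a*, *Ces1e* and *Ces1g* had a mean TPM of at most 0.268 in either group and were not tested. *Ces1d* and *Ces1f* share no stretch of 75 bases with the transcripts of another gene in the annotation checked.

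The windows before these 2 genes are shown because they had the largest rises of the 10 genes and lie in the same cluster. Both windows are free of annotated exons over all 250 bases, chr8:93924467-93924716 for *Ces1d* and chr8:94006376-94006625 for *Ces1f*, each on the minus strand of GRCm39.
Ces1d: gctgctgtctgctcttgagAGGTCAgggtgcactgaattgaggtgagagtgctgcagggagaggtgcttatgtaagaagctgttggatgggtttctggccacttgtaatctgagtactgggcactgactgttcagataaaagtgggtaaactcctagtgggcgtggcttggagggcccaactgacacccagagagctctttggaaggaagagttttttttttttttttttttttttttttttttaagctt
Ces1f: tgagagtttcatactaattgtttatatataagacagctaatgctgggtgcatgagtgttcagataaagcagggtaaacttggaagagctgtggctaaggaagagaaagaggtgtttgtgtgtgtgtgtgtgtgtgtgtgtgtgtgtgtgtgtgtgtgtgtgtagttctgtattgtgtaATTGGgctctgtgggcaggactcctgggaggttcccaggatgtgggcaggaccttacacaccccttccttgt
The *Ces1d* window holds AGGTCA starting at -231, and the direct repeat beginning there matched in 9 of its 12 fixed letters, as the best match did or exceeded in 18.1% of all windows. The *Ces1f* window holds CCAAT on the reverse strand starting at -72, as 35.5% of windows held CCAAT on either strand. The full direct repeat was in 0.0324% of windows and in none of the 10 genes. The best partial match among the 10 was in *Lipe*, with 10 of 12 letters, which 2.59% of windows reached. The cAMP response element was in the *Pnpla3* window alone among the 10, at -67 within an annotated exon, and in 2.24% of all windows.

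*Pnpla3* (chr15:84052038-84071437, plus strand), which encodes adiponutrin, the closest relative of ATGL among the 10 and a gene known to follow feeding, was the least firm of the 7 increases. TPM was 7.24, 8.09 and 6.61 in the K382Q libraries and 6.11, 4.61 and 4.94 in the K382R libraries. The groups did not overlap, but K382Q replicate 3 and K382R replicate 1 were close. The log2 fold change was 0.46 (SE 0.122, adjusted p = 0.0165). The adjusted p was 0.0587 without K382Q replicate 2, 0.0548 without K382R replicate 2 and 0.0513 without K382R replicate 3.

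**Figure D3:**
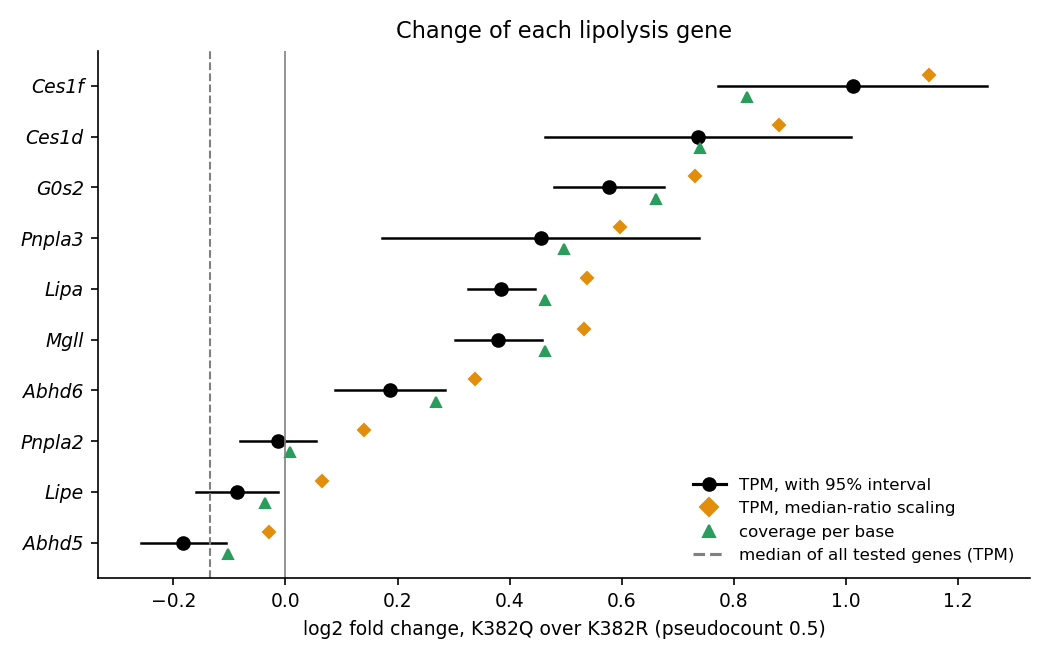
Log2 fold change of each gene, K382Q over K382R, with its 95% interval on TPM (black circles), and the same after median-ratio scaling (orange diamonds) and in coverage per base (green triangles), where the dashed line is the median of all tested genes at -0.14. *Ces1f*, *Ces1d*, *G0s2*, *Pnpla3*, *Lipa*, *Mgll* and *Abhd6* lie above 0 on all 3 scales, *Abhd5* lies below 0 on all 3, and *Pnpla2* and *Lipe* change sign between them.

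By TPM the order of the genes was the same in both groups, namely *G0s2*, *Pnpla2*, *Lipe*, *Lipa*, *Mgll*, *Abhd5*, *Abhd6*, *Ces1d*, *Pnpla3* and *Ces1f*. *Pnpla3* and *Ces1f* overlapped in the K382Q group, and *G0s2* with *Pnpla2* and *Ces1d* with *Pnpla3* overlapped in the K382R group. The rank of *Lipe* depends on the unit. The deposited FPKM of a gene was 3.78 to 3.93 times its coverage per aligned Gb for *Lipe*, 2.28 to 2.30 times for *Lipa* and 1.00 times for *G0s2*. In coverage per aligned Gb *Mgll* (86.4 ± 0.995 in K382Q) and *Lipa* (78.8 ± 1.23) stood above *Lipe* (54.6 ± 1.29, SD, n = 3 each). The 7 genes called higher had the same direction and passed the test in both units. In *Lipe*, 1326 exonic bases are shared with the antisense gene *4732471J01Rik*, whose TPM was 2.71 to 5.03, and in *Abhd5* 1111 with *A730085K08Rik*, whose TPM was 0.128 to 0.505. In *Pnpla2*, 867 exonic bases are shared with the antisense gene *Gm72429*, which has no value in the deposited tables. Of the stretches of 75 bases in the transcript checked, 30.6% in *Abhd5*, 10.0% in *Pnpla2* and 5.4% in *Lipe* also lay in transcripts of another gene. Whether the reads were counted by strand is not given in the sources used here.

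*Pparg*, the overexpressed gene, was itself lower in the K382Q group. Its TPM was 1333, 1164 and 1104 in the K382Q libraries and 1590.0, 1632 and 1612 in the K382R libraries, with a log2 fold change of -0.43 (SE 0.064, adjusted p = 0.000977). This value joins the cells' own transcript and the vector's, and its level is uncertain, since the deposited FPKM of *Pparg* was 40.6 to 43.2 times its coverage per aligned Gb. In that coverage it was 11.6 ± 0.940 and 14.7 ± 0.359 (SD, n = 3 each). The part of this difference in the changes of the lipolysis genes was not tested.

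The labelled cell type was checked with marker genes. Adipocyte markers were high in both groups, with a summed TPM of 53740 to 57641 in K382Q and 44095 to 45360 in K382R, most of which was *Fabp4*, a fatty acid carrier, at 47893 ± 2099 and 37837 ± 617 (SD, n = 3 each). Of the 9 tested, 5 were higher and 3 lower, with *Cfd* (adipsin) at a log2 fold change of 1.23 and *Adipoq* (adiponectin) at -1.28, and *Lep* was listed at 0. After quantile normalization 3 of these adipocyte markers were higher and 3 lower, and after median-ratio scaling 6 were higher and 2 lower. All 6 tested of 10 preadipocyte and fibroblast markers were lower (*Thy1* by over 2-fold, at -1.25), with a summed TPM of 571 to 615 against 940.2 to 979, and *Dpp4* was listed at 0. Macrophage and leukocyte markers summed to a TPM of 3.77 to 4.90 against 3.65 to 5.33, with *Adgre1* and *Cd3e* at 0. Endothelial markers summed to 1.57 to 2.23 against 1.69 to 1.82, with *Emcn* at 0. Hepatocyte markers, of interest beside the carboxylesterases, summed to 1.296 to 1.73 against 0.307 to 0.985, with *Ttr*, *Tat* and *Serpina1a* at 0. Among them *Alb* (albumin), below the filter on low values, was at a TPM of 0.631, 0.483 and 0.788 in the K382Q libraries and 0.041, 0 and 0 in the K382R libraries, without overlap. Since the markers of precursors and of adipocytes moved with the mutant, more cells of a kind and more RNA per cell cannot be told apart for any of the lipolysis genes, and their part in the results was not tested.

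The proteins that hold the lipases at the droplet or carry off their products were compared as a list of 16 genes, all tested. Of these, 7 were higher, 2 lower and 7 did not pass, and the median log2 fold change was 0.03, against -0.14 for all tested genes. The 3 genes changed over 2-fold were all higher. *Hilpda*, whose product inhibits ATGL as G0S2 does, had TPM values of 477, 463 and 439.9 in the K382Q libraries and 156, 175 and 176 in the K382R libraries, a log2 fold change of 1.44 (SE 0.053, adjusted p = 1.26e-06). *Hilpda* was below *G0s2* in TPM in every library. *Faf2*, which encodes UBXD8, a protein also known to restrain ATGL, was lower, with a log2 fold change of -0.29 (adjusted p = 0.00021), and was named after its value was seen. Relative to the median of all genes the change of *Faf2* was -0.15. *Plin5*, a droplet coat protein that binds ATGL and CGI-58, had TPM values of 43.1, 45.8 and 39.6 against 19.7, 20.9 and 20.3 (log2 fold change 1.06, adjusted p = 8.00e-06). *Cidea*, which promotes droplet growth and is used as a marker of brown and beige fat, was at 4.497, 4.75 and 4.33 against 0.108, 0.751 and 0.434 (log2 fold change 2.49, adjusted p = 0.000137). *Cidea* passed the filter on low values through its K382Q libraries. Its K382R values lie near that limit, so the size of its change is uncertain. *Plin1*, the perilipin that sequesters CGI-58 at rest and was named after its value was seen, was at a log2 fold change of -0.05 (adjusted p = 0.210).

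Receptors and enzymes that switch lipolysis on or off were compared as a list of 45 genes, of which 38 were tested. Of these, 11 were higher, 23 were lower and 4 did not pass, where 11.1% of all tested genes were higher and 36.9% lower. The median log2 fold change of the list was -0.18. In coverage per base 10 were higher and 15 lower, where 2397 of the 15426 tested genes were higher and 4256 lower. After median-ratio scaling of TPM 11 were higher and 16 lower, where 19.9% of all tested genes were higher and 20.4% lower. *Adrb3*, which encodes a receptor through which catecholamines start lipolysis, was low in level and changed over 2-fold, with TPM values of 2.92, 1.94 and 1.86 in the K382Q libraries and 0.645, 0.289 and 0.363 in the K382R libraries (log2 fold change 1.55, adjusted p = 0.000769). *Adrb3* passed the filter on low values through its K382Q libraries, so the size of its change is uncertain. *Ffar4*, the receptor for long-chain fatty acids known to restrain lipolysis, was at 44.1, 39.8 and 43.5 against 12.9, 12.97 and 11.98 (log2 fold change 1.71, adjusted p = 9.61e-07). Receptors that start and that restrain lipolysis were thus among the genes that rose. The 3 genes lower by over 2-fold were the adenylyl cyclases *Adcy5* (log2 fold change -1.45) and *Adcy7* (-1.15) and the cGMP-dependent kinase gene *Prkg2* (-1.08), with adjusted p-values of 4.28e-06, 0.000434 and 0.0150. *Prkg2* had a mean TPM of 0.497 in K382Q and 1.52 in K382R and rests on few reads. It passed the filter on low values through its K382R libraries.

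Other hydrolases of neutral lipids were compared as a further list. Of 35 listed, 18 were tested, of which 3 were higher, 6 lower and 9 did not pass, with a median log2 fold change of -0.14 that equalled that of all tested genes to 2 decimals. After median-ratio scaling 4 were higher and 3 lower. Another 7 were listed at 0 in all libraries. *Lipg*, which encodes endothelial lipase, a secreted phospholipase, was the single gene of this list changed over 2-fold, with TPM values of 14.9, 13.3 and 13.1 against 6.26, 5.80 and 5.48 (log2 fold change 1.17, adjusted p = 2.21e-05). *Lpl*, the lipoprotein lipase that brings fatty acids into adipocytes, was lower, at a mean TPM of 1691 ± 34.7 against 1923 ± 11.2 (SD, n = 3 each) and a log2 fold change of -0.19 (adjusted p = 0.00107), close to the median of all tested genes.

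**Figure D4:**
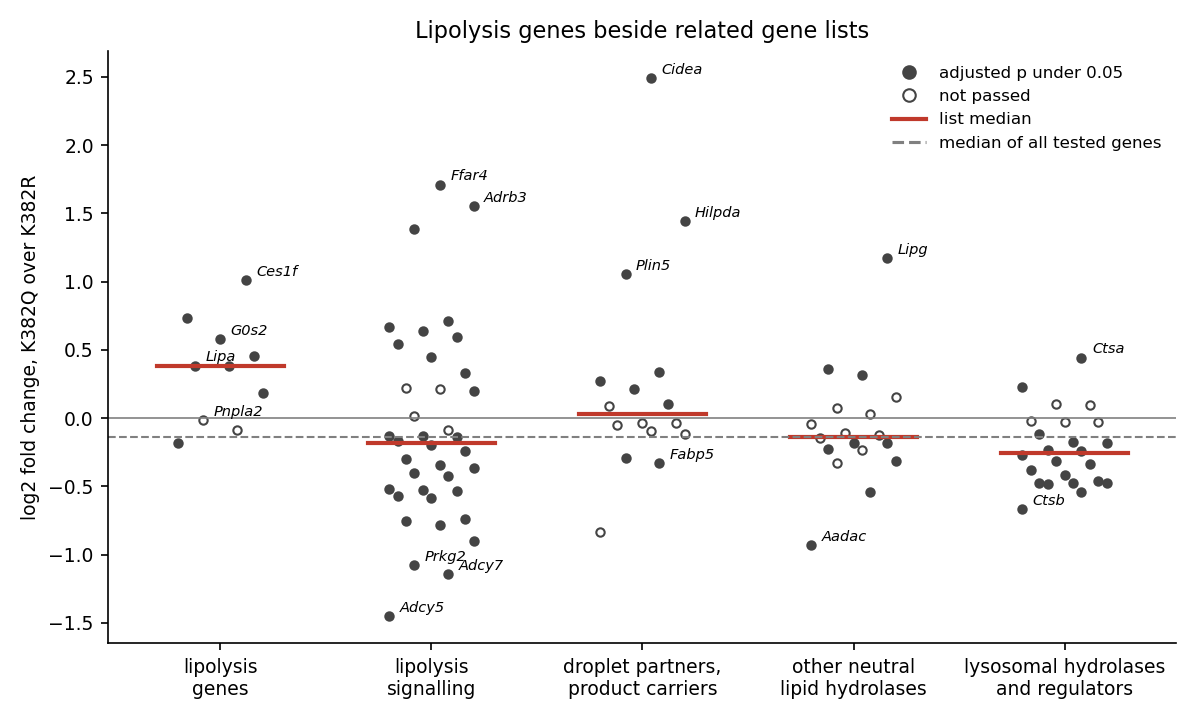
Log2 fold change of each tested gene, K382Q over K382R, in the 10 lipolysis genes and 4 related lists on the TPM scale, with filled points at an adjusted p under 0.05, red lines at list medians and a dashed line at the median of all tested genes. The median of the 10 genes is 0.38, against -0.18 for lipolysis signalling, 0.03 for droplet partners, -0.14 for other hydrolases and -0.25 for lysosomal genes.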

How the data were processed

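The authors trimmed paired reads of NEBNext Ultra RNA libraries with TrimGalore, used HISAT2 with the GRCm39 build for alignment and StringTie for quantification, per the methods and the submitters' processing notes. The annotation release is not given in the sources used here. The tables the authors deposited for each library hold coverage (the signal, average read depth over a gene), FPKM (fragments by gene length and library size) and TPM (FPKM scaled to a fixed total). The ratio of FPKM to coverage differs between genes, so levels between genes depend on the unit. TPM shows shares and not amounts. The aligned length is the most frequent ratio of coverage to FPKM in a library, held by 16.5% to 17.0% of genes with both values above 1. At most 5 entries of a library repeated a gene ID and were summed. No pair of libraries held the same values for more than 0.0145% of genes.

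TPM was compared with limma 3.58.1 (R 4.3.3, intensity trend) on log2(TPM + 0.5) over genes whose TPM reached 0.5 in 3 or more of the 6 libraries, with thresholds of 0.05 for the adjusted p and 2 for the fold. On simulated libraries with 15130 genes tested, 69.7%, 88.0% and 91.8% of genes changed by 0.5, 1 and 1.5 on the log2 scale were called in the right direction, with 11 false calls. The simulation had normal noise, far fewer changed genes than these data and no shift of the typical gene. These rates need not hold here. An exact permutation test of 3 against 3 cannot go below 0.1. Labels call the replicates biological and do not say that cultures were separate, so p-values measure the spread between these samples.

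Named genes are the 10 members, *Pparg*, marker genes, and from each list the genes changed over 2-fold (at most 6), with others marked as picked later. The result of 1 listed gene is not reported here. Members and lists came from general knowledge and were chosen with earlier results of these data known. Alternatives were pseudocounts of 1 and 0.1, no filter, a TPM of at least 1, FPKM, median-ratio scaling, quantile normalization, no trend, array weights, a replicate block, a fold of 1.5 and each library left out. Coverage per aligned Gb, with and without median-ratio scaling, was added after the data were seen. Overlaps and shared stretches used GENCODE M39. Python 3.11.15 was used for the rest.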

Additional observations from a re-analysis of the deposited data

How the results depend on the processing

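Under all 18 other settings *Mgll*, *Abhd6*, *G0s2*, *Lipa*, *Ces1d* and *Ces1f* kept their direction and passed the test. *Pnpla3* kept its direction and missed the threshold without a filter on low values (adjusted p = 0.0561) and in 3 of the 6 fits without 1 library. *Abhd5* kept its direction and missed it after median-ratio scaling of TPM (adjusted p = 0.509) and of the coverage (0.352). *Lipe* passed with a TPM of at least 1 (0.0477), with array weights (0.0334) and without K382Q replicate 2 (0.0223), and had a log2 fold change of 0.066 and 0.035 after median-ratio scaling of TPM and of the coverage. *Pnpla2* was at 0.071 with FPKM, 0.14 after median-ratio scaling, 0.0083 in coverage, 0.080 after median-ratio scaling of the coverage, and -0.024 to 0.0040 without 1 library, above 0 without K382Q replicate 3 (0.0040) or K382R replicate 3 (0.0032). The cause of these changes was not tested.

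Of the 10 genes, 0 were changed over 2-fold with a pseudocount of 1, with FPKM, with array weights, in coverage and after median-ratio scaling of the coverage, and 2 (*Ces1d* and *Ces1f*) passed a 1.5-fold limit. In coverage the means of *Ces1f* differed 2.34-fold, and the count of 0 there comes with the 0.5 added to values near 1. The number lower was 2 with a TPM of at least 1 and with array weights, and 0 after median-ratio scaling of TPM or of the coverage. Without 1 library, 6 to 7 were higher, 1 to 2 lower and 0 to 1 higher by over 2-fold. Over all tested genes, 1717 were higher and 5698 lower, and 3063 and 3146 after median-ratio scaling, 2954 and 3241 after quantile normalization, and 3202 and 3225 after median-ratio scaling of the coverage. Those changed over 2-fold were 196 higher and 403 lower, and 287 and 296 after median-ratio scaling, 277 and 306 after quantile normalization, 125 and 169 in coverage, 577 and 1287 at the 1.5-fold limit, 226 lower with FPKM and 137 lower after median-ratio scaling of the coverage. Without 1 library, all tested genes gave 1443 to 1546 higher, 4939 to 5511 lower, and 197 to 218 higher and 404 to 430 lower by over 2-fold.

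No pairing by replicate number was visible, as same-numbered libraries correlated at -0.018, 0.051 and 0.022 in their deviations from the group means. Whether cultures were paired is not given in the labels. A replicate block gave 1600 higher and 5387 lower genes over all and 7 and 1 of the 10, and changed no call among the 10. Precision rests on 3 replicates, and values for *Ces1f*, *Pnpla3* and *Ces1d* rest on the fewest reads per base.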

Other observations

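Transcription factors known to act on lipolysis genes were compared as a list of 16 genes, of which 15 were tested. Of these, 3 were higher, 4 lower and 8 did not pass, and the median log2 fold change was -0.04. After median-ratio scaling and after quantile normalization 6 were higher and 4 lower. *Egr1*, an immediate early factor known to repress *Pnpla2*, was the single gene changed over 2-fold, with TPM values of 11.3, 13.02 and 10.4 in the K382Q libraries and 24.9, 25.8 and 25.2 in the K382R libraries (log2 fold change -1.10, adjusted p = 2.92e-05). The others called were picked after their values were seen. *Ppara* was higher by 0.68, *Mlxipl*, which encodes the glucose-responsive factor ChREBP, by 0.75 and *Klf15* by 0.74 on the log2 scale, while *Snai1* and *Cebpa* had log2 fold changes of -0.53 and -0.81. *Foxo1*, a factor known to drive *Pnpla2* and also named after its value was seen, did not pass (log2 fold change -0.12, adjusted p = 0.163).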
